A study of Mus musculus with 16 samples.

Results

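Regions of histone H3 acetylated at lysine 27 (H3K27ac) were examined where they lie at the ends of protein-coding genes in mouse liver. Of the 52645 regions that the authors called and counted, 17177 (32.63%) lay on chromosomes 1 to 19, were shorter than 2500 bp and had a midpoint within 2.5 kb of either end of a coding gene. They were chosen by position and length alone. Their nearest genes numbered 9115. Mice were wild type (WT) or knocked out for NCoR1 (KO), on the C57BL/6J background. They were kept on standard chow or, from 6 weeks of age, were given for 3 weeks a low-iodine diet with 0.15% propylthiouracil (PTU/LID), which blocks thyroid hormone synthesis. Livers were taken on day 21. Each of the 4 groups, called WT chow, WT PTU/LID, KO chow and KO PTU/LID, had 3 H3K27ac libraries, made with an antibody from Active Motif. The labels name no promoter or cell type that drives the deletion, and give neither the sex of the mice nor whether each library is a separate animal, so what the p-values take as error is the spread among these libraries, which may be technical. The 4 input libraries were not analysed here.

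Acetylation of this residue is laid down by the coactivators p300 and CBP and marks active promoters and enhancers. At a promoter it flanks the stretch of open chromatin where transcription starts, so that 1 gene often carries separate regions upstream and downstream of its start. NCoR1 is the scaffold of a corepressor complex that brings the histone deacetylase HDAC3 to nuclear receptors, among them the thyroid hormone receptor. In liver this receptor holds NCoR1 when no hormone is bound and exchanges it for coactivators when hormone is present.

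The promoter windows below, 250 bases before to 50 after the start, are from RefSeq (GRCm38.p6, the mm10 assembly). They are printed because a single region covers each of them whole and changed with diet in WT or with genotype on PTU/LID. Each set holds the 2 largest rises and the 2 largest falls of that kind, a choice made after the values were seen, among 1214 regions that cover a whole window. Capitals mark matches on either strand to the TATA box TATAAA, the CCAAT box, the GC box GGGCGG, the E-box CACGTG, the nuclear receptor half-site AGGTCA, the ETS site CCGGAAG and the cAMP response element TGACGTCA.
Adora1: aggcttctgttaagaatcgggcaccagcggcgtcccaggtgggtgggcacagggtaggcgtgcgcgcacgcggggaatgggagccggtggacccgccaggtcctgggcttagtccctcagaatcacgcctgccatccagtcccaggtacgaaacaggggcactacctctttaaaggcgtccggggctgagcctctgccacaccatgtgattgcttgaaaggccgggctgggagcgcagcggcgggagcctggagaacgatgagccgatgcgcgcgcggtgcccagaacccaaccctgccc
Ggt6: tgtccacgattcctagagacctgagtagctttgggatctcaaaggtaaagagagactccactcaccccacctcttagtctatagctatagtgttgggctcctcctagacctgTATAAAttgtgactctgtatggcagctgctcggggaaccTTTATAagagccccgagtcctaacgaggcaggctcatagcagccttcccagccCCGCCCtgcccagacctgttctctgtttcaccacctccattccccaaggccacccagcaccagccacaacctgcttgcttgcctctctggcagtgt
Mup14: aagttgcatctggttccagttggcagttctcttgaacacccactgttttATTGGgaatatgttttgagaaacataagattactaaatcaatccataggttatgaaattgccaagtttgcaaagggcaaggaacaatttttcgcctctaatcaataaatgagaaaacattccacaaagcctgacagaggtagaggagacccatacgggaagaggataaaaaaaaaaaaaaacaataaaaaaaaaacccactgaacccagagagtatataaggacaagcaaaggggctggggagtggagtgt
Mup7: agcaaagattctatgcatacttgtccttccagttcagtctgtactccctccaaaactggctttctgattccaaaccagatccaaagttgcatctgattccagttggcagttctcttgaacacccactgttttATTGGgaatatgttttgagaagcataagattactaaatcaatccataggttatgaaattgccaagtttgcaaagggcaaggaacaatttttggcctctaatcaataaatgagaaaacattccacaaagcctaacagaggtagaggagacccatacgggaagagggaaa
Slc13a2: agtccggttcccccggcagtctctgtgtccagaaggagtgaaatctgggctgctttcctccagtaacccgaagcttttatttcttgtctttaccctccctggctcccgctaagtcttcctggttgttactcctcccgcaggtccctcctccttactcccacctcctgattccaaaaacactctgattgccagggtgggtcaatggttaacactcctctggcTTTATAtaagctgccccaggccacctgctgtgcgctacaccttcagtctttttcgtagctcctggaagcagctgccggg
Ces3b: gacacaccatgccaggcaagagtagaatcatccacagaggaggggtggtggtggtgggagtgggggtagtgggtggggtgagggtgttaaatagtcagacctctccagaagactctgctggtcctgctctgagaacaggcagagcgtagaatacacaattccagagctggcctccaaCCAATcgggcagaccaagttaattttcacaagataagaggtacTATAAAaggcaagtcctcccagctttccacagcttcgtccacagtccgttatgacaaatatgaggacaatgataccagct
Ces1b: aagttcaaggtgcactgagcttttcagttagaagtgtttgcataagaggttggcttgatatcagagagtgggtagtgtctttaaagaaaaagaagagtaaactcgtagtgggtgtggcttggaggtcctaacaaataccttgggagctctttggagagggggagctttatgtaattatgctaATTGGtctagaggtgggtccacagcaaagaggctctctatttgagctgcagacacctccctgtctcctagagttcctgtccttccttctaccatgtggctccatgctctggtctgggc
Prodh2: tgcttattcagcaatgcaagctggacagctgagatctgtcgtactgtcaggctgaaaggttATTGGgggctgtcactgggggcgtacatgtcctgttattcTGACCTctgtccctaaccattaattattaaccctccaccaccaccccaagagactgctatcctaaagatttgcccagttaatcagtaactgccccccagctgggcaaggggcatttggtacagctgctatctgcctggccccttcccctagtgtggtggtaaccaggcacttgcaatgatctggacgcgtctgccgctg

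With diet in WT, acetylation rose over the starts of Adora1 (chr1:134234807-134235106, minus strand), the adenosine A1 receptor gene, and Ggt6 (chr11:72435276-72435575, plus strand), a gamma-glutamyltransferase gene. It fell over those of Mup14 (chr4:61303949-61304248, minus strand) and Mup7 (chr4:60070426-60070725, minus strand), which encode major urinary proteins. The Adora1 window held 24 CpG dinucleotides and the Ggt6 window 5, while those of Mup14 and Mup7 held 2 and 1. The longest exact run of bases that the 2 Mup windows share was 69 of 300. The shared stretch continues past single-base differences, at shifted positions in the 2 windows. This run therefore understates how alike they are. Between genotypes on PTU/LID, it was higher in KO over the starts of Slc13a2 (chr11:78422185-78422484, minus strand), a dicarboxylate transporter gene, and Ces3b (chr8:105083505-105083804, plus strand), a carboxylesterase gene. It was lower over those of Ces1b (chr8:93079891-93080190, minus strand), another carboxylesterase gene, and Prodh2 (chr7:30493408-30493707, plus strand), which encodes a hydroxyproline dehydrogenase. Of the 20085 RefSeq coding windows on these chromosomes, 12.71% held TATAAA, 38.12% CCAAT, 47.04% GGGCGG, 7.89% CACGTG, 14.69% AGGTCA, 11.87% CCGGAAG and 2.3% TGACGTCA. Among the 7313 windows that are nearest to a region at a gene end, 7.11% held TATAAA and 65.57% GGGCGG. Matches describe these letters and do not show binding.

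Values are counts per 1000000 (CPM), scaled with TMM factors. The 3 libraries of a group are called a, b and c, and values are given in that order. In WT they are Chow_WT_27ac_96, Chow_WT_27ac_99 and Chow_WT_27ac_106 for chow and Ptulid_WT_27ac_135, Ptulid_WT_27ac_155 and Ptulid_WT_27ac_280 for PTU/LID. In KO they are Chow_NCoRKO_27ac_122, Chow_NCoRKO_27ac_146 and Chow_NCoRKO_27ac_190 for chow and Ptulid_NCoRKO_27ac_211, Ptulid_NCoRKO_27ac_232 and Ptulid_NCoRKO_27ac_239 for PTU/LID. Over the Adora1 start (chromosome 1, 134234292 to 134235306) the region had 9.5, 13.0 and 9.59 CPM in WT chow and 18.5, 33.8 and 32.0 in WT PTU/LID. Each PTU/LID library lay above each chow library, with a log2 fold change of 1.42 ± 0.25 (SE; edgeR's quasi-likelihood test, adjusted p = 0.000476). Over the Mup14 start (chromosome 4, 61303234 to 61305406) the libraries had 32.3, 33.4 and 30.1 CPM in WT chow and 12.2, 12.3 and 10.5 in WT PTU/LID, a log2 fold change of -1.45 ± 0.19 (adjusted p = 3.44e-06) without overlap. The corresponding changes were 1.15 ± 0.22 for Ggt6 and -1.42 ± 0.23 for Mup7. Between genotypes on PTU/LID, the Slc13a2 start had 11.7, 12.7 and 9.65 CPM in WT PTU/LID and 23.5, 28.9 and 24.5 in KO PTU/LID (log2 fold change 1.18 ± 0.21, adjusted p = 0.0005). The Ces1b start had 67.5, 104 and 101 CPM in WT PTU/LID and 45.5, 50.1 and 44.2 in KO PTU/LID (-0.97 ± 0.17, adjusted p = 0.000411). Ces3b differed by 1.02 ± 0.21 and Prodh2 by -0.86 ± 0.17, also without overlap between the groups.

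Total counts ran from 2965505 to 7416187 per library, and the median region at a gene end had 33 to 71 counts. The mitochondrial chromosome (chrM) took 0.717 to 1.08% of the counts in 5 libraries and 2.27 to 17.3% in the other 7, which include every KO chow library. Pairwise counts are therefore also given within a set where it holds more than 1 library of each group compared. The share called over all regions within the sets is not given here. At the start of Ncor1 itself, a region 546 bp from the start (chromosome 11, 62456631 to 62457105) had 15.2, 13.2 and 12.4 CPM in WT chow and 16.1, 16.1 and 17.7 in WT PTU/LID. In KO the values were 14.3, 13.8 and 11 CPM on chow and 12.0, 16.01 and 15.3 CPM on PTU/LID. KO and WT overlap on chow, and the highest values are those of WT on PTU/LID. None of the 5 tests passed there or in the second region at that start. Acetylation at the start does not check which exons were deleted. The hepatocyte identity list (genes such as Alb, Apoa2 and Hnf4a) had a region at a gene end for 26 of its 27 genes, with a summed level of 1712 to 2415 CPM over 69 regions. This compares with 105.4 to 170.4 CPM over 18 regions for 7 of 16 Kupffer cell and macrophage genes and 18.1 to 41.5 CPM over 5 regions for 4 of 15 stellate cell genes. Sums grow with the number of regions in a list. By median level the 3 lists had 24.6, 12.9 and 14.6 CPM per kb, and the 6 lists of general upkeep described below 23.9. Hepatocyte identity genes thus carried the mark in all 12 libraries, at a level close to that of general upkeep genes.

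Most regions at gene ends sat at starts. In all, 12439 (72.4%) lay within 2.5 kb of an annotated start, 1541 (8.97%) lay only near a 3′ end, and for the other 3197 the gene table gives no strand. The midpoint was inside a gene for 68.8%, and 3627 regions were within 2.5 kb of 2 or more genes. Near starts on both strands there were 1551, and 4743 genes had 2 or more regions. Lengths ran from 200 to 2497 bp with a median of 490.0 bp, and the median distance to the gene end was 531 bp (quartiles 278 and 1120.5 bp). Exons, introns and UTRs were not told apart, because the annotation used here lists whole genes.

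Around 12056 midpoints with a RefSeq coding start within 2500 bp, regions were more often downstream, in 7405 (61.4%). The bin from 0 to 250 bp downstream held 2176 regions and the next one 2009, whereas the 250 bp upstream of the start held 967 and the 250 bp before those held 1621. The counts thus fall into 2 humps with a dip just upstream of the start. Level per length followed another course. The median was highest in the sparse bin just upstream of the start, at 25.2 CPM per kb, and declined to 17.0 and 16.4 CPM per kb in the outermost bins. The 3197 regions that cover the start base itself (26.5%) were longer, with a median of 818 bp against 428 bp, and had 28.5 against 19.6 CPM per kb.

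**Figure D1:**
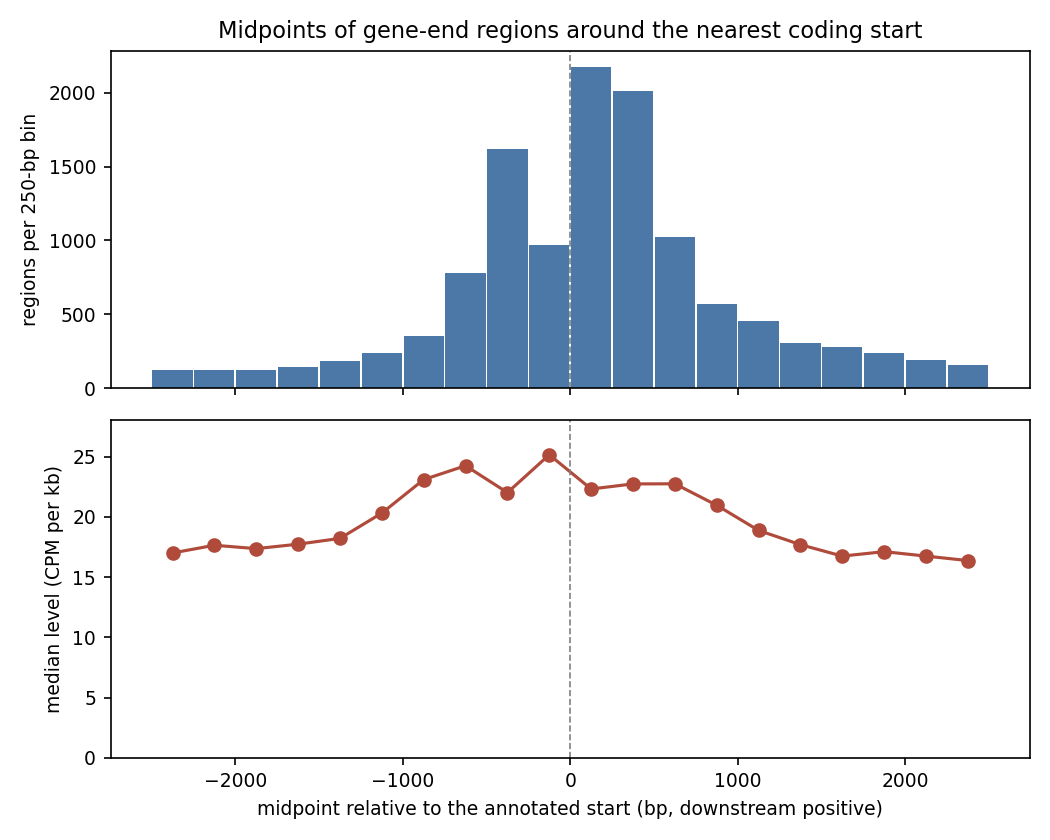
Number of regions at gene ends (upper panel) and median level in CPM per kb (lower panel) in bins of 250 bp by the distance of the region's midpoint from the nearest RefSeq coding start, with downstream positive. The count is largest from 0 to 250 bp (2176 regions) and dips to 967 just upstream, where the median level per kb is highest.

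Over all regions at gene ends the median level was 20.8 CPM per kb, with 13.7 to 36.8 between the 10th and 90th percentiles, and the group medians lay between 20.4 (KO PTU/LID) and 21.3 (WT chow). Regions of the same length class inside genes had a median of 17.6 CPM per kb and those between genes 17.9, while regions of 2500 bp or more had 33.7. At starts the median was 21.5 CPM per kb, and it was 17.3 at 3′ ends alone. Regions near starts on both strands had 22.7 CPM per kb against 21.3 for starts on 1 strand. At the length limit, 56 regions within 100 bp below it had 35.2 CPM per kb and 43 regions within 100 bp above it 34.1, so the limit divides regions of like level. At the distance limit, 237 regions just inside had 17.1 CPM per kb and 270 just outside 17.6.

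The highest level per length stood at a 3′ end. Lars2 encodes the mitochondrial leucyl-tRNA synthetase, and the region 680.5 bp from its end (chromosome 9, 123461850 to 123462139) averaged 287.8 CPM per kb. Its libraries had 108, 107 and 41.5 CPM in WT chow and 95.3, 61.1 and 62.6 in WT PTU/LID. The KO libraries had 45.9, 241 and 81.5 CPM on chow and 98.97, 30.6 and 28.1 CPM on PTU/LID. Within KO on chow alone they ran from 45.9 to 241 CPM. KO chow b, the highest library, also had the largest chrM share (17.3%), and what part this has in the value was not tested. The next 9 were at Get3, Eif4enif1, Rita1, Nr1d2, Tmem107, Lrr1, Nup205, Flcn and Slc35b1, from 152.3 down to 112.8 CPM per kb, 8 of them at starts. The start of Nr1d2, a clock gene that encodes the nuclear receptor REV-ERB beta, had 67.5, 64.0 and 78.9 CPM in WT chow and 61.8, 76.0 and 93.8 in WT PTU/LID. KO values were 84.6, 74.1 and 89.0 CPM on chow and 68.3, 77.98 and 88.0 CPM on PTU/LID. The 4 ranges overlap. The 5 lowest, at Smim38, Prdm16, Pnlip, Cpb1 and Cfap65, had 5.61 to 4.56 CPM per kb; Pnlip and Cpb1 encode digestive enzymes of the pancreas.

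As a share of the counts on chromosomes 1 to 19, regions at gene ends took 31.9 ± 0.438% in WT chow and 33.0 ± 0.895% in WT PTU/LID libraries. They took 30.8 ± 1.27% in KO chow and 31.1 ± 0.705% in KO PTU/LID libraries (SD, n = 3 each). The share was 1.48 points lower in KO than in WT (30.98 against 32.46%; exact permutation within diets, 400 arrangements, 2-sided p = 0.015, adjusted over 2 tests p = 0.03). It did not pass without WT PTU/LID a, b or c or KO chow b (exact permutation, adjusted p = 0.06, 0.07, 0.09 and 0.08), or as a share of regions below 2500 bp (-0.90 points, adjusted p = 0.35). Within the libraries of lower chrM share it was 30.75% in KO and 33.05% in WT, and within those of higher share 31.1 and 31.87%. By diet the share differed by 0.68 points (exact permutation p = 0.21).

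In WT, acetylation was higher on PTU/LID than on chow at ends of Thap7, Adora1, Rgs16, Osbpl5, Rgs8 and Flvcr2 and lower at Mup genes, Trp53inp2, Evi2, Ces3b and Lipg. Of 17166 regions at gene ends that were tested (11 had too few counts), 489 (2.849%) passed at an adjusted p below 0.05, 279 higher and 210 lower, near 407 genes. Over all regions tested 3.7% were called in this comparison. The median log2 fold change was 0.02 at gene ends and -0.03 over all regions. The share called was 3.18% inside genes, 5.61% between genes and 8.59% among regions of 2500 bp or more. Within gene ends it was 2.69% at starts and 4.22% at 3′ ends alone. Called regions had a median of 17.5 CPM, against 10.2 CPM for the rest of the regions at gene ends. In each pairwise comparison, the largest changes named were picked among called regions whose groups do not overlap. Lack of overlap at those regions thus follows from the choice and adds nothing to the test.

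Adora1 carries another such region upstream of its start (chromosome 1, 134235504 to 134235938), which had 3.48, 1.93 and 3.97 CPM in WT chow and 11.7, 13.3 and 14.4 in WT PTU/LID. Each PTU/LID library lay above each chow library (log2 fold change 2.03 ± 0.32, adjusted p = 5.63e-05). Rgs16 encodes a regulator of G protein signalling. The region downstream of its start (chromosome 1, 153740374 to 153741490) had 11.7, 15.2 and 15.7 CPM in WT chow and 25.4, 68.5 and 72.9 in WT PTU/LID, where library a is the lowest of the PTU/LID libraries but still above chow (log2 fold change 1.97 ± 0.27, adjusted p = 7.09e-05). The nearer of 2 regions upstream of Thap7 (chromosome 16, 17532466 to 17532983), which encodes a zinc finger protein, had 5.07, 4.69 and 6.28 CPM in WT chow and 22.1, 24.1 and 27.1 in WT PTU/LID, again with no overlap (log2 fold change 2.16 ± 0.28, adjusted p = 1.4e-06). The other named rises were 1.95 and 1.71 at Osbpl5, an oxysterol-binding protein gene, 1.68 at the 3′ end of Rgs8, and 1.54 at Flvcr2.

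Among the falls, Trp53inp2, whose product takes part in autophagy and was found as a coactivator of the thyroid hormone receptor, had 10.8, 17.7 and 16.5 CPM in WT chow and 3.58, 5.81 and 2.05 in WT PTU/LID in a region upstream of its start (chromosome 2, 155379674 to 155380244). All 3 PTU/LID libraries lay below the chow libraries (log2 fold change -1.98 ± 0.31, adjusted p = 5.98e-05), and the KO libraries fell as well, by 1.96 ± 0.30 on the log2 scale (adjusted p = 1.94e-05). The region upstream of Mup10 (chromosome 4, 60582114 to 60584221) had 40.2, 28.4 and 69.8 CPM in WT chow and 19.4, 10.1 and 9.24 in WT PTU/LID (log2 fold change -1.90 ± 0.27, adjusted p = 0.000147). Lipg, the endothelial lipase gene, had 28.2, 37.0 and 44.0 CPM in WT chow and 15.2, 8.83 and 13.3 in WT PTU/LID at one end (chromosome 18, 74958418 to 74959677; log2 fold change -1.57 ± 0.22, adjusted p = 6.35e-06). The other named falls were at Mup-ps12 (-2.27 and -1.67), Mup22 (-1.81), Evi2 (-1.60) and Ces3b (-1.60). All 16 named calls in WT held with each WT library left out. The count itself moved: it was 1064 without PTU/LID a, 192 and 137 without PTU/LID b and c, and 207, 209 and 313 without chow a, b and c. The excess of rises was not stable. Rises and falls numbered 91 and 116 without chow a, 95 and 114 without chow b, 94 and 98 without PTU/LID b, and 61 and 76 without PTU/LID c. With TMM factors from regions at gene ends alone they numbered 229 and 222. The libraries of lower chrM share hold 1 WT chow library and those of higher share 1 WT PTU/LID library, so no count is given within them.

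**Figure D2:**
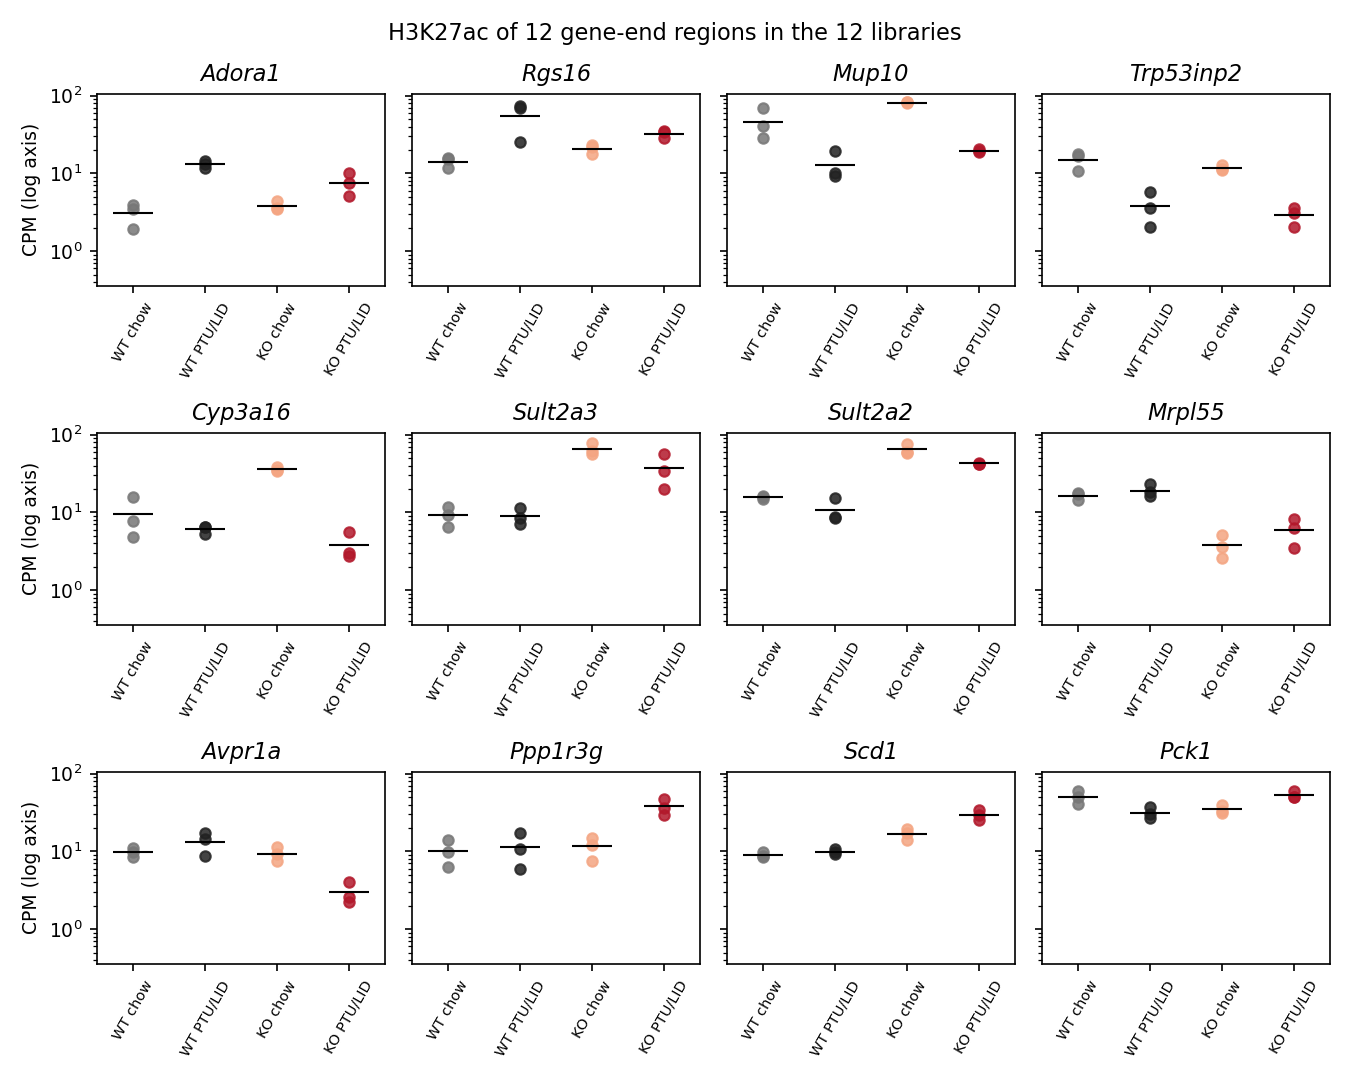
Level in CPM of 12 named regions in each of the 12 libraries, 1 panel per region, with the 4 groups along the axis, points for libraries and bars for the group means. In Adora1 and Rgs16 the 3 WT PTU/LID points lie above the 3 WT chow points, and in Sult2a3, Sult2a2 and Mrpl55 the KO points part from the WT points on both diets.

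In KO, acetylation on PTU/LID against chow fell most at Cyp3a16, Cyp3a41b, Mup11, Mup17, Mup19 and Mup-ps12, and rose most at Osbpl5, Dync2li1, Tubb2a, Tmc7, Syne3 and Pcdh20. Of the regions at gene ends 597 (3.478%) passed, 263 higher and 334 lower, while 6.21% of all regions were called. Among the falls, 59 were at Mup genes and 11 at Cyp3a genes, with 0 rises in either family. Regions of these gene clusters are not independent. The excess of falls depended on the setting: TMM factors from regions at gene ends alone gave 308 higher and 278 lower, and a term for the chrM sets, the libraries of lower and higher chrM share, gave 167 higher and 366 lower. Without library a of both PTU/LID groups 540 were higher and 484 lower. The share called was 10.8% between genes and 5.85% inside genes. At 3′ ends alone 7.79% passed, against 2.94% at starts. Cyp3a16, a cytochrome P450 gene of the sex-biased list, had 33.9, 38.9 and 34.7 CPM in KO chow and 5.63, 3.04 and 2.77 in KO PTU/LID downstream of its start (chromosome 5, 145468718 to 145469639). It fell by 3.31 ± 0.29 on the log2 scale (adjusted p = 4.97e-10), with every chow library above every PTU/LID library. Osbpl5 had 1.996, 5.21 and 4.43 CPM in KO chow and 19.7, 24.4 and 36.6 in KO PTU/LID downstream of its start (chromosome 7, 143755622 to 143756577; log2 fold change 2.80 ± 0.32, adjusted p = 9.91e-07) and rose in all 3 of its named regions. Tubb2a, a beta-tubulin gene, had 2.18, 3.54 and 2.75 CPM in KO chow and 10.5, 14.3 and 14.0 in KO PTU/LID upstream of its start (chromosome 13, 34078824 to 34079402; log2 fold change 2.21 ± 0.33, adjusted p = 1.04e-05), also without overlap. The 16 named calls in KO held with each library left out. The log2 fold changes of the others were -2.85 and -2.79 (Mup11), -2.79 (Mup19), -2.57 (Mup-ps12), -2.56 and -2.47 (Mup17), -2.44 (Cyp3a41b), 2.24 (Dync2li1), 1.84 (Tmc7), 1.78 (Syne3) and 1.77 (Pcdh20). Without chow a, b or c the count was 333, 430 or 389, and without PTU/LID a, b or c it was 710, 356 or 333. All KO chow libraries are of higher chrM share, with only 1 KO PTU/LID library beside them, so no count is given within the sets.

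The 2 diet comparisons share no library. Regions higher in both numbered 44, which is 15.8% of those higher in WT and 16.7% of those higher in KO, and regions lower in both numbered 86, or 41.0% and 25.7%. One region, at Pck1, passed in opposite directions. The plot of both fold changes shows 955 regions called in at least 1 genotype, 358 in WT alone, 466 in KO alone and 131 in both. At Mup genes lie 59 of the 955. Regions of this 1 gene cluster made up 32 of the falls in WT and 59 of those in KO, with 0 rises. They are not independent of each other and weigh on the number lower in both. A call in 1 genotype alone does not show that the genotypes differ, and the test of that difference passed for 19 regions.

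**Figure D3:**
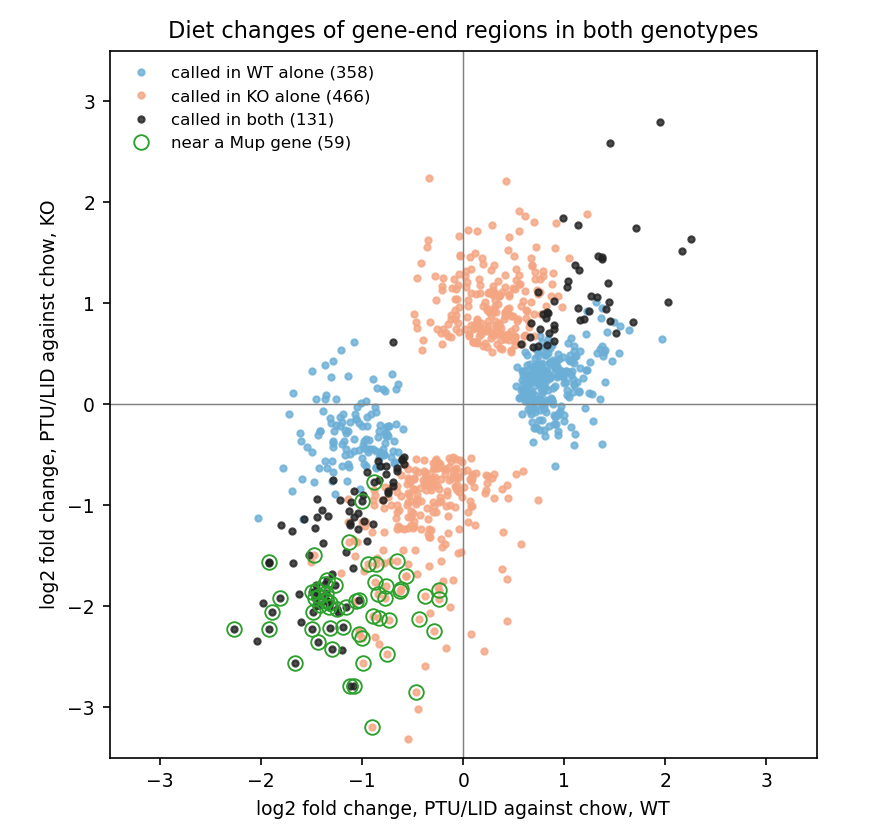
Log2 fold change with the PTU/LID diet in WT (horizontal) and in KO (vertical) for the 955 regions at gene ends called in at least 1 of the genotypes, coloured by where they were called, with Mup regions marked. The 131 regions called in both lie in the 2 quadrants of like sign, apart from 1 at Pck1.

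On chow, KO livers had more acetylation than WT at the ends of sulfotransferase genes of the Sult2a family and of Cyp3a41a, Cyp3a41b and Cyp3a16, and less at Mrpl55, Btnl10, Slfn8, Evi2, Lrrc32, Tie1, Fmnl3 and Il6ra. Of the regions at gene ends 264 (1.538%) passed, 188 higher in KO and 76 lower, where 2.43% of all regions were called. Among 1443 regions of 2500 bp or more 93 were higher and 4 lower. Sult2a3, which encodes a bile acid and steroid sulfotransferase, had 11.7, 9.39 and 6.45 CPM in WT chow and 55.7, 77.4 and 60.8 in KO chow downstream of its start (chromosome 7, 14121843 to 14123140). KO exceeded WT in every library (log2 fold change 2.86 ± 0.31, adjusted p = 2.28e-05), and did so on PTU/LID too, with 11.3, 7.11 and 8.42 CPM in WT PTU/LID and 19.9, 34.1 and 56.9 in KO PTU/LID (log2 fold change 2.09 ± 0.31, adjusted p = 0.000441). Sult2a2 had 16.5, 15.7 and 14.9 CPM in WT chow and 58.8, 59.7 and 75.8 in KO chow (chromosome 7, 13733281 to 13735005; log2 fold change 2.05 ± 0.20, adjusted p = 9.59e-09). The Cyp3a rises ran from 1.83 to 2.32. The other named rise was Sult2a1 (2.15, lost with cyclic loess, p up to 0.066). The call at the Cyp3a41a region that starts at 145718386 was lost without WT a or c or KO b or c or with DESeq2, p up to 0.128. For a lost call the libraries left out or the settings under which it failed are named, with the highest adjusted p over all alternatives. In a pairwise comparison, single libraries were left out only from the groups compared, although all 12 enter the fit. The settings are cyclic loess scaling with limma, DESeq2, RLE or gene-end TMM factors, no filter, no chrM-like regions, and the chrM term. Both PTU/LID a stands for library a of WT and of KO on PTU/LID left out together, which was chosen after seeing the data.

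Mrpl55 encodes a protein of the mitochondrial ribosome. Upstream of its start (chromosome 11, 59201763 to 59202323) the libraries had 17.7, 17.1 and 14.4 CPM in WT chow and 3.63, 2.6 and 5.2 in KO chow. The KO libraries were lower without overlap (log2 fold change -2.07 ± 0.29, adjusted p = 2.28e-05), as were those on PTU/LID, with 16.1, 23.0 and 18.1 CPM in WT PTU/LID and 8.18, 6.35 and 3.5 in KO PTU/LID (log2 fold change -1.72 ± 0.27, adjusted p = 8.84e-05). Btnl10, a butyrophilin-like gene, had 23.1, 24.6 and 29.1 CPM in WT chow and 8.17, 7.63 and 6.57 in KO chow beyond its 3′ end (chromosome 11, 58927608 to 58928469; log2 fold change -1.79 ± 0.24, adjusted p = 1.63e-05). Mrpl55, Btnl10, Slfn8 and Evi2, 4 of the 8 named falls, lie on chromosome 11, which also carries Ncor1. Within 25 Mb of Ncor1 1.81% of 661 regions passed (6 higher, 6 lower). Elsewhere it was 1.53% of 16505 regions (182 higher, 70 lower). These differences, in total or by direction, were not tested. The other named falls were Evi2 (-1.33, lost without WT b or KO b or c, p up to 0.0836), Slfn8 (-1.38), Lrrc32 (-1.25, lost without WT a or b or KO b or c, p up to 0.126), Tie1 (-1.24, lost without WT c or KO c, p up to 0.0618), Fmnl3 (-1.21, lost without WT a or b or KO a or c, p up to 0.0928) and Il6ra (-1.21, lost without WT c, p up to 0.0859). Leaving out any chow library lowered the count of 264. It was 115, 132 and 85 without KO a, b and c and 79 and 116 without WT b and c. Without WT a it was 0.786% of the regions. With a term for the chrM sets the count was 1042, and within the libraries of higher chrM share (3 KO against 2 WT) 668. Without library a of both PTU/LID groups, which enter the fit through the shared spread, it was 714.

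Summed levels of endothelial, Kupffer cell and stellate cell markers were lower in KO than in WT on chow. Over 28 regions of 14 endothelial genes the summed level was 257.5 to 262.5 CPM in WT chow and 187 to 201.6 CPM in KO chow. On PTU/LID it was 200.5 to 241.7 CPM in WT and 191.3 to 206.4 CPM in KO. Kupffer cell and macrophage genes had 127.5 to 170.4 CPM in WT on chow against 105.4 to 117.2 in KO, then 124.2 to 161 and 133 to 157.3 on PTU/LID. Stellate cell genes had 32.0 to 41.5 against 19.9 to 27.04 CPM on chow, and 23.6 to 29.7 against 18.1 to 23.8 on PTU/LID. Endothelial and stellate sums were thus also lower in WT PTU/LID than in WT chow, without overlap. Cholangiocyte genes, with 3 regions, had 25.65 to 38.1 CPM in WT chow and 33.12 to 47.36 in KO chow. Lymphocyte genes, with 4 regions, had 24.07 to 28.99 CPM in WT chow and 15.13 to 18.69 in KO chow. No value in these lists was at 0. KO against WT on chow, C1qc (-1.55, lost without WT b or c or KO a or c, p up to 0.103), Tie1 (-1.24, lost without WT c or KO c, p up to 0.0618), Eng (-0.90, lost without WT c or KO a, b or c or with cyclic loess, DESeq2 or the chrM term, p up to 0.352) and Col3a1 (-1.23, lost without WT b or c or KO b or c or with cyclic loess, p up to 0.138) fell. With diet in WT, Spi1 (-1.05, lost without chow a, b or c or PTU/LID a or b, p up to 0.153), a myeloid transcription factor, and Pecam1 (-0.86, lost without chow a, b or c or PTU/LID b or c or with RLE or the chrM term, p up to 0.254), an endothelial adhesion molecule, fell. With diet in KO Fcer1g (1.09, lost without PTU/LID c, p up to 0.0724) and Tie1 (0.67, lost without chow b or c or PTU/LID b or c or with the chrM term, p up to 0.197) rose. In bulk liver, fewer cells of a type and less acetylation per cell cannot be told apart, and the part these cells play in the other results was not tested.

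On PTU/LID, KO livers had more acetylation than WT at Dync2li1, Sult2a genes, Sec31b, Ppp1r3g, Cinp and Pnpla3, and less at Avpr1a, Btnl10, Mrpl55, Hspb1, Perp, Plxnb1 and H1f2. Of the regions at gene ends 407 (2.371%) passed, 271 higher in KO and 136 lower, and 3.86% of all regions were called. The split depended on scaling, since TMM factors from regions at gene ends alone gave 362 higher and 98 lower. The median log2 fold change was -0.07 at gene ends and -0.01 over all regions. Regions of 2500 bp or more had 156 higher and 3 lower. Ppp1r3g, which encodes a subunit that directs protein phosphatase 1 to glycogen, had 5.97, 17.4 and 10.7 CPM in WT PTU/LID and 29.1, 36.7 and 48.0 in KO PTU/LID downstream of its start (chromosome 13, 35960189 to 35960924). Every KO library was above every WT library (log2 fold change 1.71 ± 0.31, adjusted p = 0.00188). Pnpla3, which encodes a lipid droplet protein, had 6.87, 5.17 and 2.67 CPM in WT PTU/LID and 16.1, 11.6 and 15.7 in KO PTU/LID downstream of its start (chromosome 15, 84167870 to 84168446; log2 fold change 1.59 ± 0.30, adjusted p = 0.000944). The vasopressin receptor gene Avpr1a had 17.0, 14.4 and 8.62 CPM in WT PTU/LID and 4.09, 2.21 and 2.62 in KO PTU/LID at its start (chromosome 10, 122448450 to 122448964), so KO was lower without overlap (log2 fold change -2.21 ± 0.31, adjusted p = 1.39e-05). On chow the same region had 11.1, 8.56 and 9.75 CPM in WT chow and 9.26, 7.63 and 11.3 in KO chow, and the genotypes overlapped. Hspb1, a small heat shock protein gene, had 19.7, 14.0 and 15.8 CPM in WT PTU/LID and 3.33, 7.32 and 5.54 in KO PTU/LID (chromosome 5, 135888013 to 135888435; log2 fold change -1.55 ± 0.28, adjusted p = 0.000571).

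The other named rises on the log2 scale were Dync2li1 (2.05), Sult2a2 (2.02), Sec31b (1.96), Sult2a1 (1.81, lost with cyclic loess, p up to 0.05) and Cinp (1.67). The other named falls were Btnl10 (-1.77), Avpr1a (-1.59), Perp (-1.45), Plxnb1 (-1.39) and H1f2 (-1.37). All 16 named calls on PTU/LID held with each library left out. The count was 462, 289 and 199 without WT a, b or c, and 531, 205 and 179 without KO a, b or c. With a term for the chrM sets 720 passed. Within the libraries of lower chrM share (2 against 2) 711 passed. Those of higher share hold 1 library of each genotype, without replication, so no count is given for them. The genotype comparisons on the 2 diets share no library: 43 regions were higher in KO in both (22.9% of those on chow, 15.9% of those on PTU/LID). There were 9 lower in both (11.8 and 6.62%), and 0 in opposite directions. Each shares its WT or KO libraries with a diet comparison.

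**Figure D4:**
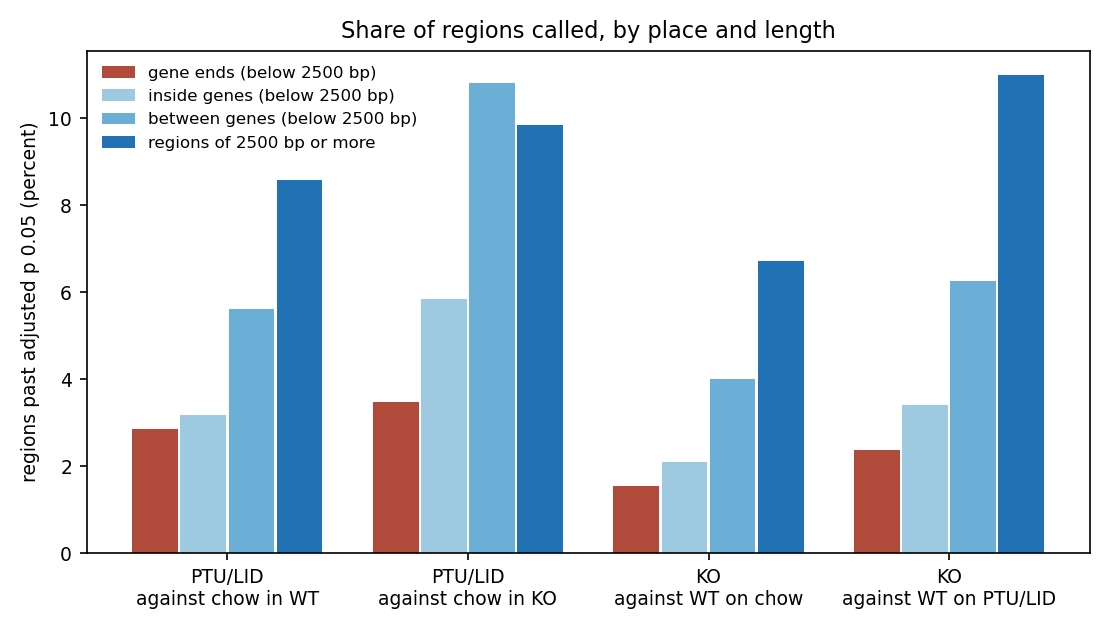
Percentage of tested regions called in each of the 4 pairwise comparisons, for regions at gene ends, inside genes, between genes and of 2500 bp or more. Gene ends have the lowest share in each comparison, from 1.538 to 3.478%.

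Among pathway lists, a gene is counted where 1 or more of its regions at gene ends passed, and the log2 fold change given is that of its region with the smallest adjusted p. Shares of a list's regions are given in the order diet in WT, diet in KO, genotype on chow and genotype on PTU/LID. Over all regions these were 3.7, 6.21, 2.43 and 3.86%, with median log2 fold changes of -0.03, -0.01, -0.01 and -0.01. Differences between a list and all regions were not tested. Where a list's calls are given with 1 library left out, it is a library of the groups compared. Of 15 genes induced by thyroid hormone with such a region, 4 fell with diet in WT and 0 rose (list median -0.14, 47 regions). Of its 47 regions 8.51, 14.9, 4.26 and 21.3% passed, with 0, 1, 2 and 7 genes higher and 4, 5, 0 and 0 lower. Those that fell in WT were Cyp7a1 (-1.13), Cpt1a (-0.89, lost without chow b or PTU/LID c, p up to 0.0662), Me1 (-0.86, lost without PTU/LID c, p up to 0.0717) and Pck1 (-0.70, lost without chow b or c or PTU/LID c, p up to 0.141). They encode the enzyme of the first step of bile acid synthesis, the carnitine palmitoyltransferase of mitochondrial fatty acid entry, malic enzyme, and phosphoenolpyruvate carboxykinase of gluconeogenesis. In KO 5 fell and 1 rose. Dio1 (-2.01, lost with the chrM term, p up to 0.156), the deiodinase gene, Cyp7a1 (-1.68), Idh3a (-1.22), Ucp2 (-0.84, lost without chow a, p up to 0.0528) and Bcl3 (-0.58, lost without chow a or c or PTU/LID a, b or c or without both PTU/LID a or with gene-end TMM or DESeq2, p up to 0.261) fell, and Pck1 (0.62, lost without chow a or c or PTU/LID b or c or with the chrM term, p up to 0.171) rose. Between genotypes on PTU/LID 7 of 15 were higher in KO and 0 lower, with a median of 0.29 against -0.01 over all regions. Thrsp (1.16), Me1 (1.30), Fasn (0.99) and Atp2a2 (0.83) held with each library left out. G6pc (1.05, lost without WT c or KO c, p up to 0.0711), Pck1 (0.75, lost without WT c or KO c, p up to 0.0802) and Cpt1a (0.76, lost without WT c or KO b or c, p up to 0.0967) did not. With 1 library left out the number higher was 4 to 7. On chow Cyp7a1 (0.92, lost without any of the 6 or with gene-end TMM or cyclic loess, p up to 0.172) and Fasn (0.81, lost without WT a or b or KO a or c or with cyclic loess, p up to 0.166) were higher in KO, and with cyclic loess scaling 0 were higher and 1 was lower.

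Dio1 makes active thyroid hormone in liver. Its region at a gene end (chromosome 4, 107307299 to 107307548) had 3.48, 5.25 and 1.65 CPM in WT chow and 5.68, 2.58 and 1.23 in WT PTU/LID. In KO the values were 4.9, 4.28 and 6.57 CPM on chow and 2.05, 1.24 and 0.875 CPM on PTU/LID. In KO each PTU/LID library lay below each chow library (log2 fold change -2.01 ± 0.44, adjusted p = 0.00282; lost with the chrM term, p up to 0.156). In WT the diets overlapped (log2 fold change -0.13 ± 0.46, adjusted p = 0.913). The difference between the diet effects in KO and WT did not pass at this region, so the genotypes were not shown to differ. Its levels were low, from 0.875 to 6.57 CPM. Scd1 encodes the stearoyl-CoA desaturase. Its region (chromosome 19, 44392542 to 44393960) had 9.82, 8.56 and 8.76 CPM in WT chow and 10.8, 9.9 and 9.24 in WT PTU/LID. The KO libraries had 17.4, 19.4 and 14.1 CPM on chow and 25.3, 34.1 and 29.7 CPM on PTU/LID. KO libraries were above WT libraries on PTU/LID (log2 fold change 1.59 ± 0.21, adjusted p = 7.82e-06), and on chow too (log2 fold change 0.91 ± 0.22, adjusted p = 0.0205; lost without WT b or c or KO a or b, p up to 0.0991).

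Of 17 lipogenic genes 8 were higher and 0 lower in KO on PTU/LID, with a list median of 0.49 over 42 regions. In all, of its 42 regions 2.38, 9.52, 11.9 and 33.3% passed, with 1, 3, 5 and 8 genes higher and 0, 1, 0 and 0 lower. Pnpla3 (1.59), Scd1 (1.59), Elovl5 (1.11) and Fasn (0.99) held with each library left out. Acss2 (0.81, lost without KO c, p up to 0.0622), Mlxipl (0.89, lost without KO b, p up to 0.077), Acacb (0.80, lost without WT a or c or KO b or c, p up to 0.145) and Fads2 (0.78, lost without WT b or KO b or c, p up to 0.119) did not. With 1 library left out 5 to 10 were higher. Mlxipl encodes the carbohydrate response factor ChREBP, Acss2 makes acetyl-CoA from acetate, and Elovl5 lengthens fatty acids. On chow 5 were higher and 0 lower (median 0.40, 1 to 2 with 1 chow library left out and 4 to 6 with 1 PTU/LID library left out). The genes higher on chow were Scd1 (0.91, lost without WT b or c or KO a or b, p up to 0.0991), Mlxipl (1.07, lost without WT c or KO b, p up to 0.0637) and Fasn (0.81, lost without WT a or b or KO a or c or with cyclic loess, p up to 0.166), with Pnpla3 (1.16, lost without WT a or c or KO b or c, p up to 0.165) and Fads2 (0.63, lost without WT a or b or KO a, b or c or with cyclic loess, p up to 0.16). With diet, Mlxipl (1.13, lost without PTU/LID b, p up to 0.0516) rose in WT. In KO Acly (0.68, lost without chow a or c or PTU/LID b or c or with the chrM term, p up to 0.318), Scd1 (0.82, lost without chow c or PTU/LID b, p up to 0.065) and Mlxipl (0.96, lost with the chrM term, p up to 0.0639) rose. Fads2 (-0.58, lost without chow a, b or c or PTU/LID b or c, p up to 0.108) fell.

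Fatty acid oxidation had 7 of 21 genes higher in KO on PTU/LID and 0 lower (median 0.24, 3 to 9 with 1 library left out). Of the 60 regions 1.67, 1.67, 3.33 and 13.3% passed, with 0, 1, 2 and 7 genes higher and 1, 0, 0 and 0 lower. The genes higher on PTU/LID included Vnn1 (1.23), Acot1 (0.98), Ehhadh (1.29, lost without KO c, p up to 0.0852) and Cyp4a10 (0.87, lost without WT c or KO b, p up to 0.0655). The others were Acaa1b (0.81, lost without WT b or c or KO b or c, p up to 0.142), Cpt1a (0.76, lost without WT c or KO b or c, p up to 0.0967) and Acot2 (0.60, lost without WT a, b or c or KO b or c or with RLE or cyclic loess, p up to 0.324). Ehhadh and Acaa1b act in peroxisomal beta-oxidation, and Cyp4a10 hydroxylates fatty acids. On chow Cpt2 (0.69, lost without WT a or b or KO a, b or c or with cyclic loess, p up to 0.209) and Vnn1 (lost without WT c, p up to 0.0705) were higher in KO. With diet Acot1 (0.93) rose in KO. Cholesterol genes had 5 of 20 higher and 0 lower (median 0.24, 2 to 4 with 1 library left out). Among them Sc5d (0.69, lost without WT c or KO b or c, p up to 0.0733) and Mvd (1.31, lost without WT b or c or KO a, p up to 0.127) act in synthesis. Abcg5 (1.10) and Abca1 (0.70, lost without WT a or KO b or c or without both PTU/LID a, p up to 0.176) encode transporters that export sterols. Of that list's 51 regions 0, 3.92, 5.88 and 13.7% passed, with 0, 1, 3 and 5 genes higher and 0, 1, 0 and 0 lower. On chow Abca1 (0.74, lost without WT a, b or c or KO a or c or with cyclic loess, p up to 0.14), Abcg5 (0.67, lost without WT a or b or KO a or b or with cyclic loess, p up to 0.126) and Sc5d (0.74, lost without WT a or KO a, p up to 0.0635) were higher in KO. With diet in KO Abcg5 (1.25, lost without chow a or c or PTU/LID a or c or without both PTU/LID a or with cyclic loess, DESeq2 or no filter, p up to 0.288) rose and Sc5d (-0.94, lost without chow a or b or PTU/LID a, b or c or without both PTU/LID a or with gene-end TMM, cyclic loess, DESeq2 or the chrM term, p up to 0.253) fell.

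Glucose genes had 4 of 17 higher and 0 lower, G6pc (1.05, lost without WT c or KO c, p up to 0.0711), Pygl (0.88, lost without KO c, p up to 0.115), Irs2 (0.75, lost without KO b, p up to 0.0577) and Pck1 (0.75, lost without WT c or KO c, p up to 0.0802). Among the 43 regions 11.6, 4.65, 4.65 and 11.6% passed, with 3, 2, 2 and 4 genes higher and 1, 0, 0 and 0 lower. On chow Irs2 (0.76, lost without KO b, p up to 0.0736) and Pygl (0.72, lost without WT a or b or KO b or c, p up to 0.17) were higher in KO. With diet in WT, Fbp1 (0.70, lost without chow a or b or PTU/LID b or c, p up to 0.259), Pklr (0.81, lost without chow b or c or PTU/LID b, p up to 0.12) and Pfkl (0.81, lost without chow a or b or PTU/LID b or c or with the chrM term, p up to 0.209) rose, of which Pklr and Pfkl are glycolytic and Fbp1 is gluconeogenic. Igfbp1 (0.52, lost without any of the 6 or with the chrM term, p up to 0.185) rose with diet in KO. Among 14 bile acid genes on PTU/LID, Abcb11 (0.86, lost without WT b or c or KO b or with cyclic loess, p up to 0.155), the bile salt export pump gene, was higher in KO. Cyp8b1 (-1.37, lost without WT b or KO c, p up to 0.0733) and Abcc3 (-0.65, lost without WT b or c or KO a or c or without both PTU/LID a or with gene-end TMM, p up to 0.212) were lower. With diet in WT Slco1a1 (-1.79) and Abcb4 (-0.69, lost without chow c or PTU/LID c, p up to 0.15) fell, and in KO Abcb4 (-0.81). On chow Abcb4 (0.63, lost without WT a, b or c or KO a or c or with cyclic loess, p up to 0.155) was higher in KO. Of these 31 regions 12.9, 9.68, 6.45 and 9.68% passed, with 0, 0, 2 and 1 genes higher and 3, 2, 0 and 2 lower.

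In the growth hormone axis, Socs2 (1.11), Prlr (0.82, lost without WT c, p up to 0.0848) and Stat5a (1.46, lost without WT c, p up to 0.0515) were higher in KO on PTU/LID. Cish (-1.47, lost without any of the 6 or without both PTU/LID a or with cyclic loess, p up to 0.224) was lower. Socs2 and Cish encode inhibitors induced by the hormone's signal, Stat5a a factor it activates. On chow Cish (0.80, lost without WT a, b or c or KO b or with cyclic loess, p up to 0.214), Igf1 (0.73, lost without WT a, b or c or KO b or c or with cyclic loess, p up to 0.181) and Prlr (0.87, lost without WT c or KO b, p up to 0.0738) were higher in KO. With diet Stat5a (-1.50, lost without PTU/LID c, p up to 0.062) fell in WT. Cish (-1.48, lost without chow b or c or PTU/LID c or with DESeq2, p up to 0.146) and Igf1 (-0.85, lost without chow b or PTU/LID c, p up to 0.0639) fell in KO. Over the axis, of 29 regions 3.45, 10.3, 10.3 and 17.2% passed, with 0, 1, 3 and 3 genes higher and 1, 2, 0 and 1 lower. Of 19 sex-biased liver genes, 8 fell and 0 rose with diet in KO (median -0.63 over 53 regions), and 6 were higher and 1 lower in KO on chow (median 0.35). The list does not separate genes by the direction of their sex bias, so its counts and medians show no shift toward either sex. Many of these regions belong to the Cyp3a and Mup families described next. Outside them, Nudt7 (-1.46), Abcd2 (-0.85) and Sult3a1 (-1.17, lost without chow a, b or c or PTU/LID b or c or with cyclic loess, DESeq2 or the chrM term, p up to 0.186) fell with diet in KO. Cyp2d9 (1.07) rose with diet in WT. It was lower in KO on chow (lost without WT a or b or KO a, b or c, p up to 0.155) and on PTU/LID (log2 fold changes -0.82 and -1.23). Cyp2a4 (1.04, lost without WT a or b or KO c or without both PTU/LID a, p up to 0.0959) was higher in KO on PTU/LID. Of the sex-biased list's 53 regions 18.9, 37.7, 22.6 and 7.55% passed, with 1, 0, 6 and 3 genes higher and 4, 8, 1 and 1 lower. The labels give no sex, chromosome X took 0.780 to 1.05% of the counts in each of the 12 libraries, and the region at Xist, the RNA of the inactive X, had 25.1 to 39.7 CPM. Clock genes higher in KO on PTU/LID were Nfil3 (1.06), Hlf (0.89, lost without WT a or c or KO b or c or without both PTU/LID a or with RLE, p up to 0.182) and Bhlhe40 (0.63, lost without WT a or b or KO b or c, p up to 0.118). With diet in KO Bhlhe41 (1.18, lost without chow a, b or c or PTU/LID b or c or with cyclic loess, DESeq2 or the chrM term, p up to 0.18) rose and Nr1d2 (-0.57, lost without chow a, b or c or PTU/LID a or c or without chrM-like regions or without both PTU/LID a or with RLE, gene-end TMM or DESeq2, p up to 0.209) fell. Of the clock list's 47 regions 2.13, 4.26, 6.38 and 8.51% passed, with 1, 1, 3 and 3 genes higher and 0, 1, 0 and 0 lower. Hepatocyte identity genes that rose with diet in WT were Apob (0.63, lost without chow a or b or PTU/LID b or c, p up to 0.268), Serpina1c (0.66, lost without chow a or b or PTU/LID b or c, p up to 0.228), Apoh (0.65, lost without chow a or b or PTU/LID b or c, p up to 0.118) and Apoa2 (0.54, lost without chow a, b or c or PTU/LID b or c or with gene-end TMM, cyclic loess or no filter, p up to 0.256). Apoa2 (0.95, lost without chow a or c or PTU/LID c, p up to 0.119) rose in KO. On chow Onecut1 (0.96, lost without WT b or c or KO b or c, p up to 0.131) and Foxa2 (0.67, lost without any of the 6 or with cyclic loess, p up to 0.152) were higher in KO. Of the hepatocyte list's 69 regions 5.797, 1.45, 5.797 and 0% passed, with 4, 1, 2 and 0 genes higher and 0, 0, 0 and 0 lower.

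Of 25 genes of nuclear receptors and coregulators, 1 was higher and 0 lower in KO on each diet, in 57 regions. It was Tbl1xr1, which encodes a subunit of the NCoR1 complex. Of these 57 regions 3.51, 3.51, 3.51 and 5.26% passed, with 1, 1, 1 and 1 genes higher and 1, 1, 0 and 0 lower. Its longest region (chromosome 3, 22074333 to 22076186) had 32.3, 45.0 and 40.5 CPM in WT chow and 22.7, 43.1 and 37.0 in WT PTU/LID. KO values were 89.5, 77.4 and 94.3 CPM on chow and 57.5, 71.9 and 67.5 CPM on PTU/LID. KO lay above WT on chow (log2 fold change 1.14 ± 0.18, adjusted p = 0.000196) and on PTU/LID (log2 fold change 0.93 ± 0.19, adjusted p = 0.00178), and both calls held with each library left out. The other Tbl1xr1 regions, starting at 22076653 and 22077283, had log2 fold changes of 1.96 and 0.98 on PTU/LID, also kept with each library left out. On chow the region starting at 22077283 had 0.83 (lost without WT b or KO b, p up to 0.114). With diet, Nr1i3 (0.59, lost without chow a or b or PTU/LID b or c or with gene-end TMM, p up to 0.239), the gene of the xenobiotic receptor CAR, rose in WT and Tbl1xr1 (-1.29, lost without chow a or b or PTU/LID b or c or with the chrM term, p up to 0.22) fell. In KO Nr1i3 (0.56, lost without chow a, b or c or PTU/LID b or c or with DESeq2 or the chrM term, p up to 0.393) rose. Of 19 xenobiotic metabolism genes, 3 were higher and 1 lower in KO on PTU/LID. Cyp3a11 (1.11), Cyp2a5 (0.96, lost without WT b or without both PTU/LID a, p up to 0.131) and Cyp3a25 (0.93) were higher. Nqo1 (-0.85, lost without WT b or c or KO b, p up to 0.112) was lower. Of the xenobiotic list's 51 regions 11.8, 7.84, 0 and 11.8% passed, with 3, 3, 0 and 3 genes higher and 1, 0, 0 and 1 lower. With diet in WT Cyp3a11 (-1.08, lost without PTU/LID c, p up to 0.0523) fell and Gstm1 (0.71, lost without chow b or c or PTU/LID b or c, p up to 0.143), Gstp1 (0.84, lost without chow b or c or PTU/LID b or c, p up to 0.129) and Nqo1 (0.78, lost without chow a, b or c or PTU/LID b or c or with gene-end TMM or the chrM term, p up to 0.19) rose. In KO Gsta1 (1.24, lost without chow a or PTU/LID b, p up to 0.0869), Gstp1 (0.91) and Ephx1 (0.61, lost without chow a or PTU/LID b or c, p up to 0.0666) rose. On chow edgeR called 0 of 51 regions between genotypes, with 6 at an unadjusted p below 0.05, and DESeq2 called 0.

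For immediate early and stress response genes, of 75 regions 1.33, 5.33, 1.33 and 1.33% passed, with 1, 3, 1 and 1 genes higher and 0, 0, 0 and 0 lower. Of 24 immediate early and stress response genes, Trib3 (1.16), a pseudokinase gene, rose with diet in WT. Trib3 (0.84, lost without chow a or b or PTU/LID b or c or with the chrM term, p up to 0.189), Gadd45b (0.81, lost without chow a or c or PTU/LID a or b or with cyclic loess or the chrM term, p up to 0.166) and Btg2 (0.64, lost without chow a or b or PTU/LID b or c or with the chrM term, p up to 0.271) rose with diet in KO. Between genotypes Ier2 (0.70, lost without WT a or b or KO a, b or c or with cyclic loess, p up to 0.0924) was higher in KO on chow and Gadd45g (0.91, lost without WT b or c or KO a or b, p up to 0.0976) on PTU/LID. Of 18 heat shock and ER chaperone genes, Dnajb9 (0.66, lost without chow a or c or PTU/LID c, p up to 0.106), Pdia3 (0.61, lost without chow a, b or c or PTU/LID b or c, p up to 0.178) and Xbp1 (0.56, lost without chow a, b or c or PTU/LID b or c or with gene-end TMM, p up to 0.203) rose with diet in WT. In KO Hspa5 (0.77, lost without chow a or c or PTU/LID a or b or without both PTU/LID a, p up to 0.155) and Hspa1b (0.61, lost without chow a or PTU/LID c, p up to 0.209) rose and Creld2 (-1.67, lost with the chrM term, p up to 0.128) fell. Of their 37 regions 8.11, 8.11, 0 and 0% passed, with 3, 2, 0 and 0 genes higher and 0, 1, 0 and 0 lower. Among 8 cell cycle genes the cyclin D1 gene Ccnd1 (-1.53) fell with diet in KO and Cdkn1b (-1.29, lost without chow a or c or PTU/LID b or c, p up to 0.233) in WT. Of the cell cycle list's 20 regions 5, 10, 0 and 0% passed, with 0, 0, 0 and 0 genes higher and 1, 1, 0 and 0 lower. Of the acute phase list's 38 regions 2.63, 0, 0 and 0% passed, with 1, 0, 0 and 0 genes higher and 0, 0, 0 and 0 lower. The gene was Hp (0.61, lost without chow a, b or c or PTU/LID b or c, p up to 0.215). On chow, the clock genes Hlf (1.03, lost without WT b or c or KO b or c, p up to 0.202), Per3 (1.08, lost without WT a or b or KO a, b or c or with cyclic loess, p up to 0.165) and Nr1d2 (0.85, lost without WT b or KO c, p up to 0.0739) were higher in KO, the last of these away from the start region described above. Cholangiocyte genes (2 of 10 with a region) and lymphocyte genes (2 of 12) had too few regions to describe beyond the summed levels given above.

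Over 6 lists (ribosomal proteins of cytosol and mitochondria, proteasome, oxidative phosphorylation, RNA polymerase and splicing, translation factors), 178 genes of general upkeep had regions at gene ends. Of their 276 regions 0.725, 0, 1.45 and 0% passed, with 0, 0, 0 and 0 genes higher and 1, 0, 3 and 0 lower. With diet in WT 0 rose and 1 fell, Sf3b1 (-1.31, lost without chow c or PTU/LID c, p up to 0.098), a splicing factor gene. Without PTU/LID a 6 rose and 1 fell, and without library a of both PTU/LID groups 9 rose and 3 fell. Between genotypes on chow 0 were higher and 3 lower, Psmd7 (-0.60, lost without any of the 6 or with RLE, p up to 0.261), Sdhd (-1.49, lost without WT a or b or KO a or c, p up to 0.111) and Sf3b1 (-0.80, lost without any of the 6 or with cyclic loess, p up to 0.165). With diet in KO and between genotypes on PTU/LID edgeR called 0, with 19 and 16 regions at an unadjusted p below 0.05, and DESeq2 called 0 in both.

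**Figure D5:**
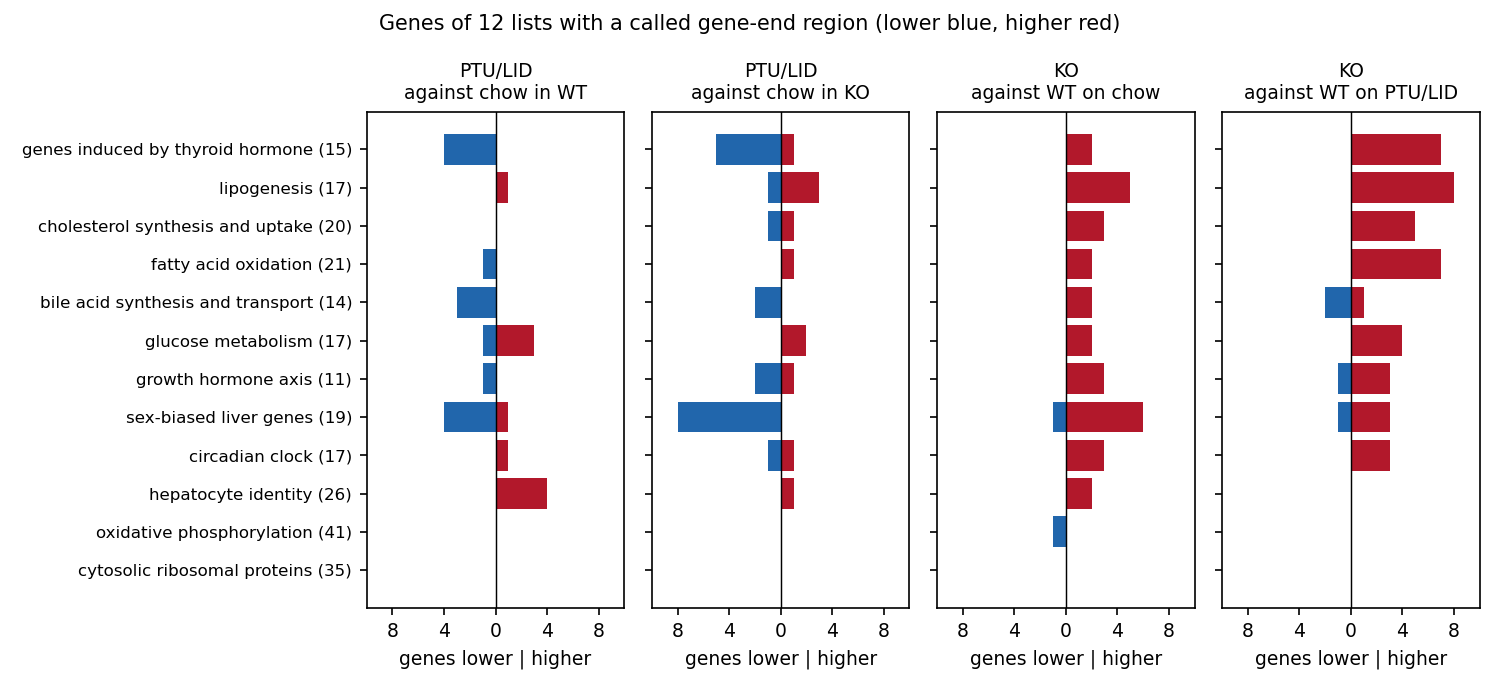
Genes of each list with a region at a gene end called higher (right) or lower (left) in the 4 pairwise comparisons, as counts of genes. On PTU/LID, KO against WT has only higher calls for lipogenesis (8 of 17), thyroid hormone targets (7 of 15) and fatty acid oxidation (7 of 21).

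Many of the named regions lay in gene clusters. These families were picked after their values were seen. Their copies are alike in sequence, and how reads matching several copies were treated is not given in the sources used here. Their regions are therefore not independent, and which copy changed is uncertain. Around 20 Mup genes there were 65 regions at gene ends. With diet 32 fell and 0 rose in WT (median log2 fold change -1.06), and 59 fell and 0 rose in KO (median -1.93). On chow 25 were higher in KO and 0 lower (median 0.86), whereas on PTU/LID the median was 0.04, with 2 higher. Of 21 regions at 7 Cyp3a genes, 11 fell with diet in KO and 3 in WT, and 10 were higher in KO on chow and 5 on PTU/LID. Of 7 regions at 5 Sult2a genes, 5 were higher in KO on chow and 4 on PTU/LID (medians 1.63 and 1.68), and with diet 1 was lower in KO. For comparison, 91 regions at 32 genes of the Cyp2 families had 3, 1, 1 and 8 calls. The order is diet in WT, diet in KO, genotype on chow and genotype on PTU/LID. Over all regions 3.7, 6.21, 2.43 and 3.86% were called in these comparisons, and differences of the families from these shares were not tested.

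The difference between the diet effects in KO and WT passed for 19 regions at gene ends (0.1107%), 7 positive and 12 negative, where 0.23% of all regions were called. DESeq2 called 34 and a term for the chrM sets gave 132. With 1 library left out the count was 3 to 51. Pck1 moved in opposite directions. Its start region (chromosome 2, 173151245 to 173152607) had 40.9, 50.8 and 60.3 CPM in WT chow and 26.9, 36.8 and 30.4 in WT PTU/LID. In KO the values were 31.6, 39.6 and 32.7 CPM on chow and 49.9, 50.1 and 59.2 CPM on PTU/LID. It fell in WT (log2 fold change -0.70 ± 0.18, adjusted p = 0.0213) and rose in KO (log2 fold change 0.62 ± 0.17, adjusted p = 0.0238), a difference of 1.31 ± 0.25 (adjusted p = 0.00898), lost without WT chow c or KO PTU/LID c, p up to 0.0739. The call in WT was lost without chow b or c or PTU/LID c, p up to 0.141, and the call in KO was lost without chow a or c or PTU/LID b or c or with the chrM term, p up to 0.171. The Cyp3a16 region fell in KO, as given above, and had 15.8, 7.73 and 4.79 CPM in WT chow and 6.57, 6.46 and 5.34 in WT PTU/LID (log2 fold change -0.55 ± 0.32, adjusted p = 0.375). The difference of -2.76 ± 0.45 (adjusted p = 0.00265) held with each library left out. Avpr1a at its start differed by -2.16 ± 0.41 (adjusted p = 0.00898), lost without KO chow c or KO PTU/LID b or c, p up to 0.0578. The region at Dync2li1, a dynein subunit gene (chromosome 17, 84653851 to 84654513), had 6.97, 7.45 and 1.65 CPM in WT chow and 4.48, 4.52 and 2.87 in WT PTU/LID. The KO libraries had 5.08, 3.54 and 1.83 CPM on chow and 18.9, 13.4 and 16.9 CPM on PTU/LID. KO PTU/LID stands above the other 3 groups, and the difference was 2.58 ± 0.56 (adjusted p = 0.0416), lost without WT chow a or b, WT PTU/LID b or c, KO chow b or c or KO PTU/LID a, b or c or with cyclic loess, p up to 0.178. The 5 regions not given elsewhere in the text were at Gamt (-1.22), Traf3ip1 (-1.13), Vcl (-1.66), Mup8 (-1.95) and Amn1 (1.33), named after their values were seen.

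Calls were more frequent at CpG-poor windows. A window was called CpG-rich at a GC content of 50% or more and an observed to expected CpG ratio of at least 0.6. Of the windows nearest to a region at a gene end 71.84% were CpG-rich, against 46.23% of all. Among 8662 regions at CpG-rich windows 1.89% passed with diet in WT, 2.07% with diet in KO, 0.901% between genotypes on chow and 1.69% on PTU/LID. Among 3389 at other windows it was 4.57, 4.66, 2.54 and 3.81%. Levels per length were close, at 21.9 and 20.7 CPM per kb, with median lengths of 492 and 523 bp, and this difference in calls was not tested. Regions of the Mup and Cyp3a clusters, which are not independent, were not left out. How far they weigh on the difference was not tested. Over the higher and lower calls of the 4 comparisons, windows were CpG-rich in 28.95% (38 windows at regions lower in KO on chow) to 59.69% (129 windows at regions higher with diet in KO).

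Among genes with a call, regions at 1 gene mostly had the same sign. The share among genes without a call was not determined, so whether called genes differ in this was not tested. Of genes with 2 or more such regions and a call, all regions had 1 sign in 240 of 323 with diet in WT, 287 of 347 with diet in KO, 134 of 180 between genotypes on chow and 199 of 263 on PTU/LID. Calls in both directions at 1 gene occurred at Cyp17a1, with diet in KO, and in no other gene of these comparisons.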

How the data were processed

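H3K27ac ChIP-seq counts of 12 mouse liver libraries were used, as raw read counts per region that the authors deposited in 1 table with each region's position and length in base pairs. The submitters' processing notes name MACS2 2.1.1, bedtools 2.26.0, Bowtie2 2.2.1, Picard 2.8.1, bcl2fastq 2.17.1.14 and mm10. How the shared regions were made, and how reads that match several places were treated, is not given in the sources used here. This table had 0 columns of samples that the labels do not name, and input libraries were not analysed here.

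Regions were tested on counts in edgeR 4.0.16 (limma 3.58.1, R 4.3.3): filterByExpr with a minimum count of 10, TMM factors over all regions, 1 mean per group, and glmQLFit with robust estimation over all 12 libraries. P-values were adjusted by Benjamini-Hochberg over the 52606 regions kept, and a call is an adjusted p below 0.05. The procedure was tested on simulated data. Shares of counts were compared by exact permutation within strata. Levels and tables were made with Python 3.11.15, numpy 2.4.6 and pandas 2.3.3.

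Named in each pairwise comparison were the 8 called regions that rose most and the 8 that fell most among those whose groups do not overlap and whose higher group averages 10 CPM or more. For the interaction these were 5 each way with 10 CPM or more in the highest group. Every called region of 27 gene lists (631 genes) and the 10 highest and 5 lowest levels per kb also qualified. The members and lists were chosen with earlier results of these data known, and the printed sequences and the gene families were chosen after their values were seen. Some genes of the lists that were called are counted but not reported here by name. Alternatives were other scalings, DESeq2 1.42.0, no filter, no chrM-like regions, a term for libraries with over 2% of counts on chrM, stricter limits of distance and length, starts alone, and each library of the groups compared left out. Genes, gene ends, strands, starts and sequences are from RefSeq tables (GRCm38.p6, the mm10 assembly), in which 16457 of 20665 coding genes of chromosomes 1 to 19 had a promoter window.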

Additional observations from a re-analysis of the deposited data

Results flagged for a closer look

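At 14 named regions at gene ends the diet effect differed between the genotypes by edgeR's test of the difference itself (log2 change with PTU/LID in KO minus that in WT, adjusted over all regions). They are given with the libraries or settings under which the call was lost and the highest adjusted p over all alternatives. The difference was positive at Dync2li1, a dynein subunit gene, from base 84653851 of chromosome 17 (2.58, lost without WT chow a or b, WT PTU/LID b or c, KO chow b or c or KO PTU/LID a, b or c or with cyclic loess, p up to 0.178) and Pcdh20, a protocadherin gene, from base 88462542 of chromosome 14 (1.48, lost without WT chow a, b or c, WT PTU/LID a or b, KO chow a, b or c or KO PTU/LID a or c or without both PTU/LID a or with RLE, p up to 0.182). It was also positive at Zfp972, a zinc finger protein gene, from base 177903471 of chromosome 2 (1.81, lost without WT chow c, WT PTU/LID c, KO chow a or b or KO PTU/LID b or c, p up to 0.157) and Castor2 from base 134099004 of chromosome 5 (1.71, lost without WT chow a, b or c, WT PTU/LID a or c, KO chow a, b or c or KO PTU/LID b or c or without chrM-like regions or with RLE, p up to 0.168). It was also positive at Baiap2l1, the gene of an actin-binding adaptor, from base 144359483 of chromosome 5 (1.38, lost without WT chow b or c, WT PTU/LID c, KO chow a or c or KO PTU/LID b or c, p up to 0.129) and Pck1, the gluconeogenic carboxykinase gene, from base 173151245 of chromosome 2 (1.31, lost without WT chow c or KO PTU/LID c, p up to 0.0739). Negative differences were found at Cyp3a16, a cytochrome P450 gene, from base 145468718 of chromosome 5 (-2.76, kept with each library left out) and Mup11, a major urinary protein gene, from base 60657318 of chromosome 4 (-2.39, lost without WT chow b or c, WT PTU/LID a, KO chow a or c or KO PTU/LID b or c, p up to 0.121). Others lay at Mup19 from base 61777826 of chromosome 4 (-1.72, lost without WT chow a, b or c, WT PTU/LID a or c, KO chow a or c or KO PTU/LID b or c or without both PTU/LID a, p up to 0.124) and Cyp3a41b from base 145583767 of chromosome 5 (-2.64, lost without WT chow c or WT PTU/LID b, p up to 0.0648). Further ones lay at Cyp3a41a from base 145719090 of chromosome 5 (-2.24, lost without WT chow c, WT PTU/LID a or b, KO chow b or c or KO PTU/LID b or without both PTU/LID a, p up to 0.127) and Cyp3a41b from base 145582409 of chromosome 5 (-2.35, lost without WT chow a or c, WT PTU/LID b, KO chow a or b or KO PTU/LID b or c, p up to 0.127). The last were at Avpr1a, the vasopressin V1a receptor gene, from base 122448450 of chromosome 10 (-2.16, lost without KO chow c or KO PTU/LID b or c, p up to 0.0578) and Perp, a desmosome gene, from base 18845038 of chromosome 10 (-1.69, lost without WT chow b or c, WT PTU/LID b or c, KO chow c or KO PTU/LID b or c, p up to 0.172). Copies in the Mup and Cyp3a families are alike in sequence, so these regions are not independent. Of the 14, only the Cyp3a16 region passed with each of the 12 libraries left out in turn.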

How the results depend on the processing

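The percentage of tested regions at gene ends that passed depended on the libraries. With 1 library of the groups compared left out it was 0.798 to 6.20% for diet in WT and 1.94 to 4.14% in KO. Between genotypes it was 0.46 to 0.786% on chow and 1.04 to 3.09% on PTU/LID, and for the interaction 0.0175 to 0.297%. Without library a of both PTU/LID groups, an alternative chosen after seeing the data, it was 8.36% for diet in WT, 5.96% for diet in KO, 4.16% for genotype on chow and 0.489% for the interaction. A term for the chrM sets gave 6.07% for genotype on chow, 4.19% on PTU/LID and 0.769% for the interaction. DESeq2 gave 0.242% for the interaction. The cause of these changes was not tested. With midpoints within 1 kb, where fewer regions enter, 2.49, 2.84, 1.19, 2.06 and 0.0897% passed in the 5 comparisons. Below 1000 bp 2.26% passed for diet in WT, 1.08% for genotype on chow and 1.76% on PTU/LID. At starts alone it was 2.94% for diet in KO, 1.38% for genotype on chow and 0.0804% for the interaction. The interaction's split of 7 higher and 12 lower was 14 and 11 with TMM factors from regions at gene ends alone, 13 and 12 with cyclic loess and 4 and 12 with RLE factors. The other alternatives left the number passing within 1.5 times its value.

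The lower share of counts in KO no longer passed as a percentage of all counts (-1.97 points, exact permutation, adjusted p = 0.07), of regions below 2500 bp (-0.90, 0.35) or of summed CPM per kb (-0.82, 0.355). With 1 library left out it was -1.67 to -1.16 points by genotype and 0.28 to 0.99 points by diet. Of 282 calls at named regions 109 passed under every alternative, 173 were lost under at least 1 and 0 reversed; of the 74 largest 57 passed under every one. A median of 33 to 71 counts per region and library limits which changes can be called. No paired analysis was possible because no replicate number is shared between the H3K27ac groups.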
